A study of Oryctolagus cuniculus with 20 samples.

Results

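HEYL, MFNG and DNER are 3 genes of the Notch signalling pathway, followed here in 20 RNA sequencing libraries of rabbit (Oryctolagus cuniculus) blood vessels. They were found by their gene names in the deposited expression table, where each is 1 gene with 1 transcript (ENSOCUG00000000560, ENSOCUG00000003512 and ENSOCUG00000016712), out of 23669 genes in all. They were selected because their measured levels differ between the groups, so their levels and differences are given as a description, with no test. All 3 passed the filter on low values, at least 1 FPKM in at least 4 libraries, as did 8657 genes in total. FPKM counts sequenced fragments per kilobase of transcript, scaled to the size of the library, so values of different genes can be set side by side.

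The study moved a piece of the common carotid artery into a vein and collected this arterial graft 14 or 30 days after surgery. The opposite carotid artery, which was not operated on, was the control on each day, and unoperated external jugular vein was the fifth group, with 4 libraries in each of the 5 groups. All samples, the unoperated vessels included, carry the same treatment label for transplantation, the cell line name HASMC and the genotype entry "tissue", although tissue and cell type labels describe rabbit artery or vein; no strain or age was used here. The libraries of a group are named biological replicates, and the labels do not say that each came from a separate animal, so the errors and p-values measure the spread between these libraries, which may be technical.

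Notch receptors are activated by ligands on a neighbouring cell, cut by ADAM proteases and gamma-secretase, and their freed inner part then switches on genes of the HES and HEY families together with the DNA-binding protein RBPJ. In arteries the pathway is known for its part in arterial identity, in endothelial sprouting through DLL4, and in smooth muscle cells, which receive JAG1 from the endothelium. HEYL encodes a transcriptional repressor and is a known Notch target in vascular smooth muscle; MFNG encodes manic fringe, a Golgi enzyme that adds a sugar to the receptor and so changes how it responds to ligands; DNER encodes a transmembrane protein with epidermal growth factor repeats, known best from mouse neurons and described there as a non-canonical Notch ligand.

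The sum of FPKM per library ran from 327806 to 671582, and between 6759 and 7740 genes reached 1 FPKM; read numbers are unknown. Libraries of the day 14 opposite arteries lay closer together than those of other groups. For 1265 genes with a mean of at least 30 FPKM, the SD between libraries of log2 values had a median of 0.0733 there, 0.135 in vein and up to 0.324 in the day 14 grafts. In each of the other 4 groups, 1 library lay close to a weighted mean of its 3 partners, with a median absolute log2 difference of 0.0775 to 0.0879, and is called mixture-like. Results are therefore also given with the day 14 opposite arteries counted as 1 sample and without the mixture-like libraries.

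Across the 5 groups the 3 genes followed 3 different orders. HEYL was high in grafts and low in all unoperated vessels. MFNG was high in grafts and in vein and low in opposite arteries. DNER was high in opposite arteries, low in vein and lowest in grafts. These orders stand in the plot of members by library.

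**Figure D1:**
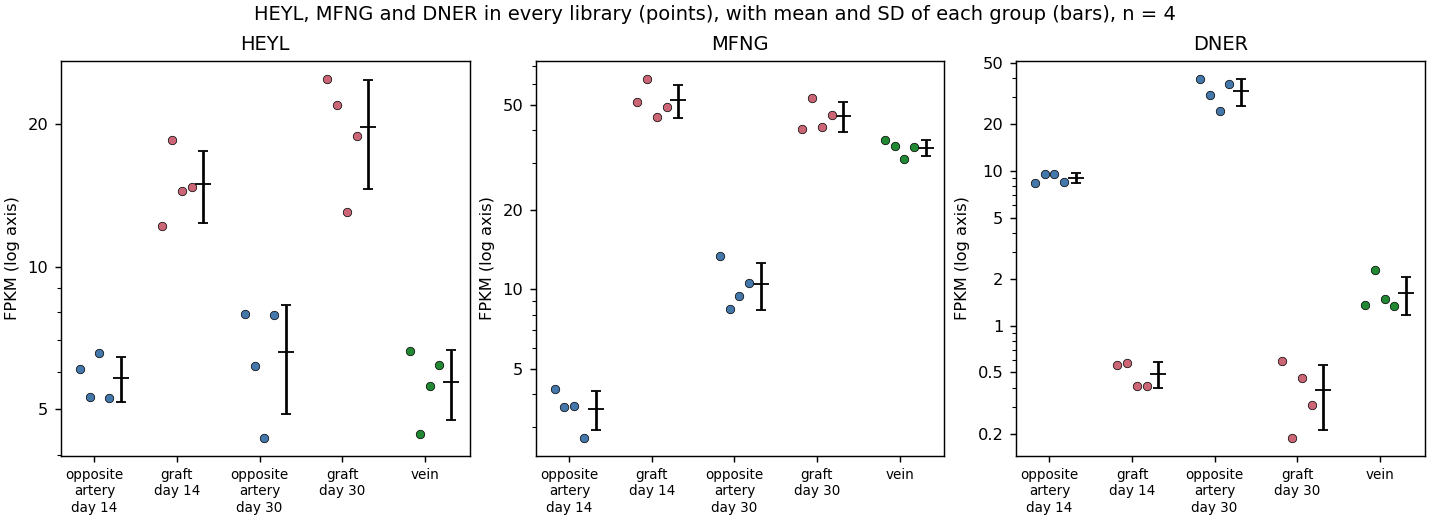
FPKM on a log axis of HEYL, MFNG and DNER in each library (points, replicates 1 to 4 from left to right) of the 5 groups, with the group mean and SD (bars, n = 4). HEYL in grafts starts at 12.21 FPKM, above the 7.96 FPKM reached in unoperated vessels, while DNER in grafts stays at or below 0.59 FPKM.

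HEYL stood at 6.07, 5.30, 6.57 and 5.28 FPKM in the opposite arteries of day 14 and at 12.21, 18.53, 14.46 and 14.72 FPKM in the grafts of that day. Every graft lay above every opposite artery, with a wide gap between them. The means were 5.81 ± 0.629 and 14.98 ± 2.62 FPKM (SD, n = 4), a ratio of 2.58.

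On day 30 HEYL stood at 7.96, 6.15, 4.35 and 7.92 FPKM in opposite arteries and at 24.93, 21.98, 13.04 and 18.89 FPKM in grafts. The groups again did not overlap, although graft replicate 3 was well below its partners, as opposite artery replicate 3 was below its own. The means were 6.60 ± 1.72 and 19.7 ± 5.09 FPKM, a ratio of 2.99. Vein held 6.63, 4.42, 5.58 and 6.20 FPKM, a mean of 5.71 ± 0.961 that fell within the range of the arteries.

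On the log2(FPKM + 1) scale, which understates changes of low genes, the difference of HEYL between grafts and opposite arteries was 1.22 (moderated SE 0.19, from limma) at day 14 and 1.44 (SE 0.19) at day 30. The change of this difference between days was 0.22 (SE 0.27), about as large as its error. Between day 14 and day 30 HEYL differed by 0.35 in grafts and by 0.13 in opposite arteries, with overlapping groups in both. Vein differed from the mean of the opposite arteries by -0.09 (SE 0.17), and this value ran from -0.25 to 0.00 over the other ways of processing. In order of level, vein, the day 14 arteries and the day 30 arteries were neighbours that overlapped, as were the grafts of day 14 and day 30; the gap lay between unoperated vessels and grafts.

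MFNG was low in the opposite arteries of day 14, at 4.17, 3.57, 3.62 and 2.74 FPKM, and stood at 50.97, 62.54, 44.95 and 49.07 FPKM in the grafts of that day. All grafts were high and all arteries low, and the groups lay far apart. The ratio of the means, 51.9 ± 7.54 against 3.53 ± 0.590 FPKM, was 14.7.

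On day 30 MFNG stood at 13.35, 8.44, 9.40 and 10.55 FPKM in opposite arteries and at 40.52, 53.20, 41.29 and 45.64 FPKM in grafts. The grafts overlapped those of day 14, whereas all 4 opposite arteries of day 30 were above all 4 of day 14. The mean of grafts was 45.2 ± 5.81 FPKM and that of opposite arteries 10.4 ± 2.13 FPKM, so that the ratio was 4.33.

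Vein held 36.77, 34.96, 31.06 and 34.49 FPKM of MFNG, a mean of 34.3 ± 2.39. It lay between arteries and grafts without overlapping either: 9.74 times the day 14 arteries, 3.29 times the day 30 arteries, and below the grafts, which exceeded it by 1.51 times at day 14 and 1.32 times at day 30. MFNG thus separated unoperated vein from unoperated artery, which HEYL did not.

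The log2 difference of MFNG between grafts and opposite arteries was 3.55 (SE 0.14) at day 14 and 2.02 (SE 0.14) at day 30, a change of -1.52 (SE 0.19). That change came with a difference of 1.33 (SE 0.14) between the opposite arteries of the 2 days; the grafts of the 2 days differed by -0.19, a value that ran from -0.27 to 0.01 with the processing. Vein exceeded the mean of the opposite arteries by 2.31 (SE 0.12).

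DNER went the other way. The opposite arteries of day 14 held 8.35, 9.60, 9.54 and 8.52 FPKM and the grafts 0.56, 0.58, 0.41 and 0.41 FPKM. All grafts were below 1 FPKM and no artery came near them. The mean of 9.002 ± 0.659 FPKM in arteries was 18.4 times the mean of 0.490 ± 0.0927 FPKM in grafts.

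On day 30 DNER stood at 38.90, 30.85, 24.45 and 36.57 FPKM in opposite arteries and at 0.59, 0.19, 0.46 and 0.31 FPKM in grafts. The arteries of day 30 were all above those of day 14, by 3.63 times in the mean, while the grafts of both days overlapped. With means of 32.7 ± 6.45 and 0.388 ± 0.174 FPKM the ratio was 84.4, and at such low graft levels a ratio depends on a few fragments whose number is unknown.

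Vein held 1.36, 2.28, 1.5 and 1.35 FPKM of DNER, a mean of 1.62 ± 0.444 FPKM. It lay below all arteries and above all grafts. The arteries exceeded it by 5.55 times at day 14 and 20.1 times at day 30, and it exceeded the grafts by 3.31 and 4.19 times.

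The log2 difference of DNER between grafts and opposite arteries was -2.75 (SE 0.15) at day 14 and -4.59 (SE 0.15) at day 30, a change of -1.84 (SE 0.21). Opposite arteries of day 30 exceeded those of day 14 by 1.73 (SE 0.15), the grafts of the 2 days differed by -0.11, and vein differed from arteries by -2.81 (SE 0.13). Because of the low graft values these differences depend on the pseudocount: with 0.1 in place of 1 they were -3.96 at day 14 and -6.12 at day 30.

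HEYL, MFNG and DNER differed from the opposite artery without overlap on both days, 2 genes upward and 1 downward. Among all 8657 genes, grafts lay above opposite arteries without overlap in 33.9% at day 14 and 23.3% at day 30, and below in 16.1% and 11.2%. Opposite arteries of day 30 lay above those of day 14 without overlap in 12.8% of genes, among them MFNG and DNER. Vein lay above both groups of arteries in 16.2%, MFNG included, and below both in 7.96%, DNER included. Since the genes were selected on these contrasts, nothing is read from their own count.

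Placed by size among the 8657 genes, the difference of DNER at day 30 was the 7th lowest, and that at day 14 the 140th lowest. MFNG held place 100 among rises at day 14 and place 323 at day 30, and HEYL places 1304 and 631. Between the opposite arteries of the 2 days, DNER held place 130 and MFNG place 227 among rises.

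Leaving out the mixture-like libraries changed the differences little. HEYL was then at 1.23 and 1.43, MFNG at 3.61 and 1.93, and DNER at -2.72 and -4.58 for the 2 days. With the day 14 opposite arteries as 1 sample, the day 14 differences were 1.22, 3.54 and -2.75. That setting puts the mean of the 4 libraries in their place, so it could hardly change these differences and does not check them. Scaling moved them more: with median-of-ratios factors the median of all genes at day 14 went from 0.26 to 0.04, HEYL to 0.95, MFNG to 3.28 and DNER to -2.92.

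**Figure D2:**
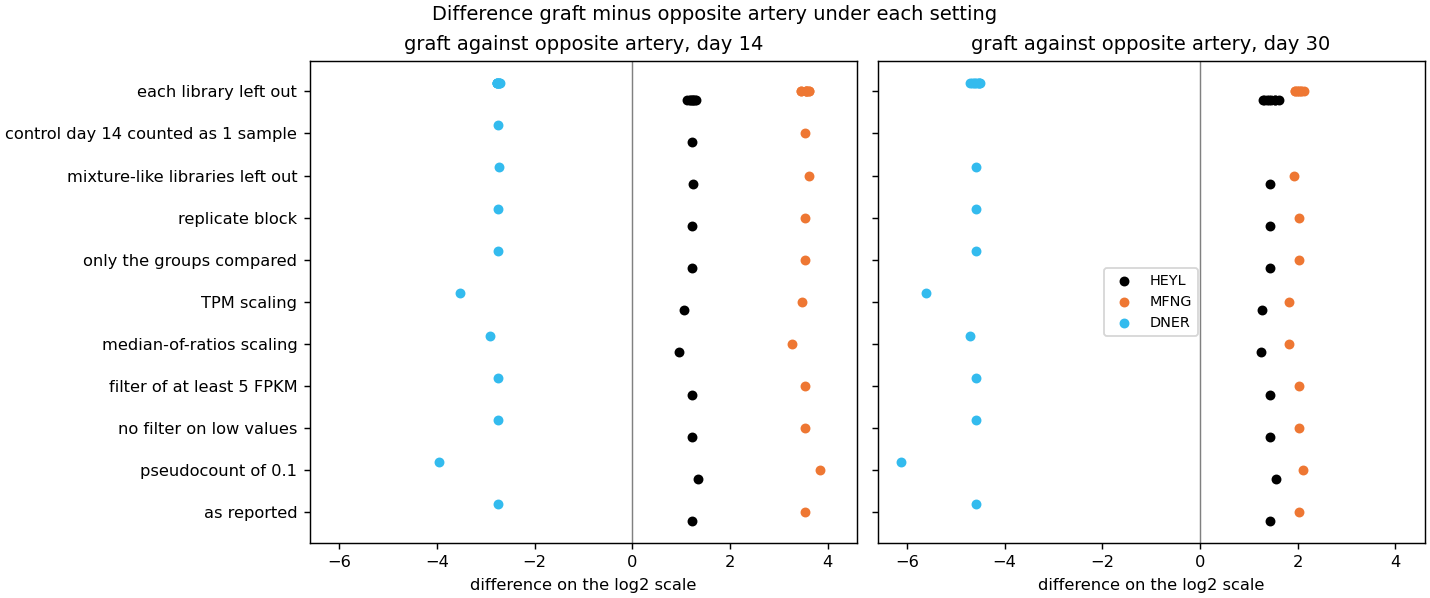
Difference of graft minus opposite artery on the log2 scale (horizontal axis) for HEYL, MFNG and DNER at day 14 (left) and day 30 (right), as reported and under each other setting; for libraries left out, 1 point stands for each. No setting moves a gene across 0, and DNER is the most spread, from -3.96 to -2.72 at day 14 and from -6.12 to -4.50 at day 30. The filters, only the groups compared and the replicate block leave these differences unchanged by construction.

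Each gene was set beside some close relatives found by name, so the shares are of the genes summed and not of whole families. As listed, HEYL made up 86.4% ± 3.41 (SD, n = 4) of the summed FPKM of HEYL, HEY1 and HEY2 in the day 14 arteries and 98.0% ± 0.419 in the day 30 grafts. HEY2, a repressor of the same family, averaged between 0.398 and 0.885 FPKM in the 5 groups and fell below the filter. HEY1 was listed at 0 in 18 of 20 libraries. Either can be a failed estimate, so the shares, which rest on HEYL and HEY2, are uncertain. HES1, the other Notch target that could be tested, did not pass at day 14 (difference 0.28, adjusted p = 0.206) and rose at day 30, from 4.42 ± 0.831 to 7.46 ± 1.63 FPKM (difference 0.63, adjusted p = 0.00915). The day 30 call of HES1 was lost with median-of-ratios (adjusted p = 0.0668) and TPM scaling (adjusted p = 0.175).

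MFNG likewise exceeded LFNG, which encodes lunatic fringe, an enzyme with the same reaction. MFNG formed between 91.9% and 99.4% of their sum in the group means. RFNG, a further fringe gene, was not found by name and is missing from the sum. LFNG was listed at 0.11, 0, 0 and 0 FPKM in the day 14 arteries and stood at 5.18, 5.64, 2.82 and 4.80 FPKM in the grafts of that day. It passed at day 14 (2.42, SE 0.51, adjusted p = 0.000623; adjusted p = 0.0543 with the day 14 opposite arteries as 1 sample) and not at day 30 (0.46, adjusted p = 0.523), where the grafts held 0, 5.12, 0.49 and 1.95 FPKM. The change between days did not pass (-1.96, adjusted p = 0.0807).

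Among DNER and 6 ligand or ligand-like genes (JAG1, DLL1, DLL4, DLL3, DLK1 and DLK2), DNER held 24.04% ± 2.18 of the summed FPKM in the day 14 arteries and 59.6% ± 2.52 in the day 30 arteries. In grafts it held 1.25% and 0.637%, and in vein 5.89%. On day 30 DNER was thus above JAG1 in every opposite artery, while in every graft and vein JAG1 was the higher of the pair. The ligand JAG2 was not found by name. MFAP5 and CNTN1, listed as non-canonical ligands like DNER, were left out of the sum. MFAP5 averaged 133 and 154 FPKM in the opposite arteries of the 2 days, above DNER.

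**Figure D3:**
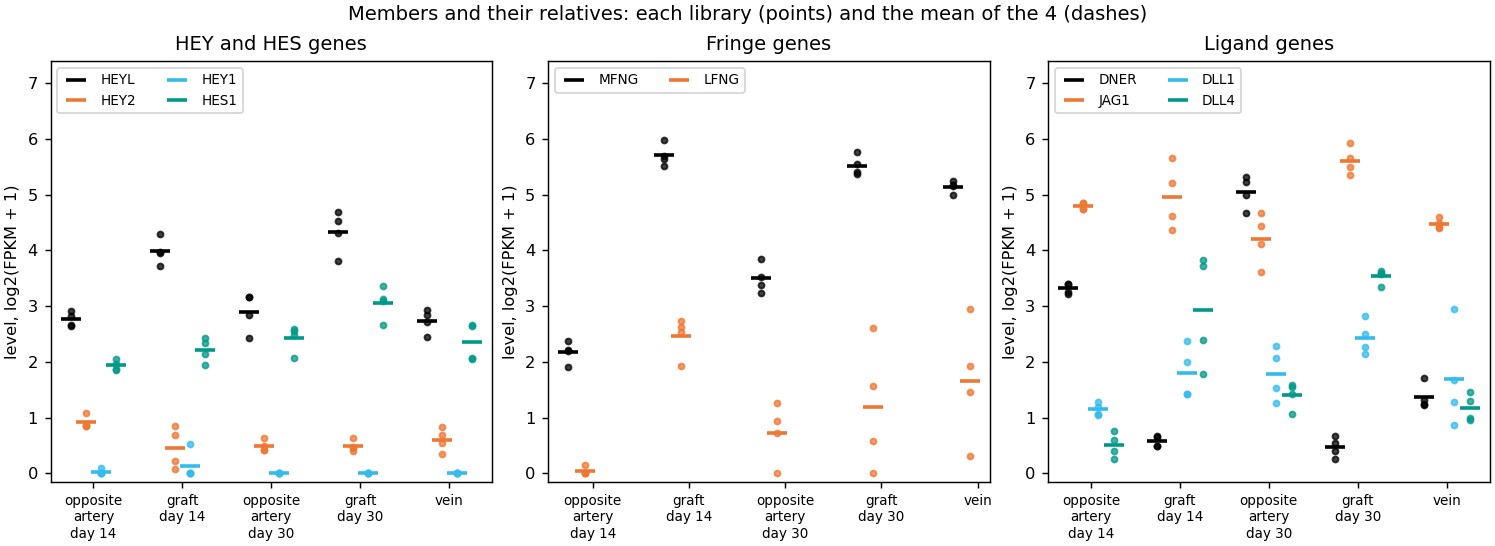
Level on the log2(FPKM + 1) scale in each library (points) and mean of the 4 libraries (dashes) for HEYL with HEY2, HEY1 and HES1, for MFNG with LFNG, and for DNER with JAG1, DLL1 and DLL4. DNER exceeds JAG1 in the day 30 opposite arteries (24.45 to 38.90 against 11.28 to 24.49 FPKM) and lies under JAG1, DLL1 and DLL4 in grafts.

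Around the 3 genes, a list of 76 Notch pathway genes was read, of which 36 passed the filter, 23 did not and 17 were not found by name and are not analysed here. Leaving aside HEYL, MFNG and DNER, 33 were tested, with p-values from limma adjusted over all 8657 genes by the Benjamini-Hochberg method. At day 14, 10 rose and 5 fell, 45.5% of the list against 53.5% of all genes; the median difference was 0.09 in the list and 0.26 over all genes. At day 30, 12 rose and 1 fell, 39.4% against 37.6%, with medians of 0.29 and 0.18. NEURL1, which passed the filter only through the grafts, is among those that rose on both days. The split follows the scaling. With median-of-ratios factors it was 9 up and 12 down at day 14 and 9 up and 7 down at day 30. With TPM scaling it was 9 and 8, and 8 and 2. Over all 8657 genes, 3161 rose and 1473 fell at day 14, and 2253 and 1000 at day 30. Median-of-ratios factors gave 2367 and 2137, and 1693 and 1474. TPM scaling gave 2136 and 1652, and 1270 and 1256. With the day 14 opposite arteries as 1 sample, fewer genes passed at day 14, in the list and over all genes.

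Among the ligands, DLL4, the endothelial ligand, rose on both days, by 2.42 (SE 0.33, adjusted p = 6.96e-06) and 2.14 (adjusted p = 5.53e-05). It stood at 0.32, 0.19, 0.52 and 0.70 FPKM in the day 14 arteries and at 12.13, 13.16, 4.24 and 2.44 FPKM in the grafts, which did not overlap. JAG1, a ligand made by endothelium and smooth muscle, did not pass at day 14 (0.17, adjusted p = 0.579) and rose by 1.40 at day 30 (adjusted p = 0.000141), from 18.2 ± 5.67 to 48.3 ± 8.74 FPKM. DLL1 did not pass on either day (0.66 and 0.64). MFAP5, a microfibril protein that binds Notch and its ligands, fell on both days as DNER did, by 2.10 (adjusted p = 6.45e-08) and by 0.71 (adjusted p = 0.00671). CNTN1, a neuronal adhesion protein and non-canonical ligand, did not pass (-0.77 and -0.76).

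NOTCH1 was not found by name and is not analysed here. Of the 3 receptors found, NOTCH2 passed the filter. It fell by 0.75 at day 14 (adjusted p = 0.0271) and did not pass at day 30 (-0.19). The day 14 call was lost without opposite artery replicate 3 or 4 or graft replicate 1 or 2, with adjusted p from 0.0513 to 0.110 (limma), with only the groups compared (adjusted p = 0.117) and with the day 14 opposite arteries as 1 sample (adjusted p = 0.269). NOTCH3, the receptor of smooth muscle, was below the filter and averaged between 0.133 and 0.863 FPKM, highest in the day 30 grafts. NOTCH4, an endothelial receptor, was below it too, with 0.0675 FPKM in the day 14 arteries and 1.01 in the day 30 grafts. Values this near 0 can be failed estimates, so they are not read as levels of the receptors.

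Of 3 ubiquitin ligases that act on ligands, NEURL1 was higher in grafts on both days (limma), by 1.16 (adjusted p = 2.34e-06) and 1.00 (adjusted p = 2.65e-05). It passed the filter only through the grafts, where it averaged 1.54 and 1.39 FPKM, against at most 0.32 FPKM in unoperated vessels. Its calls therefore give no independent support. NEURL1B rose at day 30 (1.49, adjusted p = 1.47e-05), and MIB1 fell at day 14 (-1.09, adjusted p = 0.0223). The MIB1 call was lost without opposite artery replicate 1 or 3 or graft replicate 1 or 2, with adjusted p from 0.0580 to 0.0947, with only the groups compared (adjusted p = 0.0868) and with the day 14 opposite arteries as 1 sample (adjusted p = 0.218). Of 7 protease genes 4 rose on both days, beside 3161 of all 8657 genes at day 14 and 2253 at day 30. The 4 included NCSTN (1.34 and 1.11), APH1A (1.62 and 1.09) and APH1B (1.55 and 1.95), which belong to gamma-secretase. The other was FURIN (1.49 and 1.20), which cuts the receptor on its way to the surface. APH1B lost its day 14 call with the day 14 opposite arteries as 1 sample (adjusted p = 0.162), and FURIN its day 30 call with TPM scaling (adjusted p = 0.0800). PSENEN, PSEN2 and ADAM10 did not pass. NCSTN, for example, stood at 15.8 ± 0.641 FPKM in the day 14 arteries and 42.2 ± 7.99 in the grafts (adjusted p = 1.51e-07).

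Of the 5 genes of the nuclear complex, KAT2B, an acetyltransferase, fell at day 14 (-0.81, adjusted p = 0.0260), and none passed at day 30. The KAT2B call was lost without opposite artery replicate 1, 2 or 3 or graft replicate 1 or 2, with adjusted p from 0.0511 to 0.109. It was also lost with only the groups compared (adjusted p = 0.0882), without the mixture-like libraries (adjusted p = 0.0521) and with the day 14 opposite arteries as 1 sample (adjusted p = 0.254). RBPJ was listed at 0 in 15 of 20 libraries, among them every day 30 opposite artery and graft, so it could not pass on day 30. It is still counted among the genes tested. EP300, a coactivator used by all cells, was listed at 0 in 20 of 20, so a listed 0 can be a failed estimate. Of 6 corepressor genes TLE4 rose on both days (0.64 and 0.68), and NCOR1 fell at day 14 (-0.58; adjusted p = 0.130 with the day 14 opposite arteries as 1 sample). The TLE4 calls were lost at day 14 without opposite artery replicate 3 or 4 or graft replicate 3 or 4 (adjusted p up to 0.108), and at day 30 without opposite artery replicate 1, 2 or 4 or graft replicate 2 or 4 (adjusted p up to 0.109). On both days they were also lost with no filter, with median-of-ratios and TPM scaling and without the mixture-like libraries. The highest adjusted p was 0.280 at day 14, with the opposite arteries of that day as 1 sample, and 0.244 at day 30, with TPM scaling.

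DTX2 and DTX4, ligases that act on the receptor, rose on both days, DTX2 by 1.65 and 0.70 and DTX4 by 2.01 (adjusted p = 2.67e-06) and 1.14 (adjusted p = 0.00154). The day 30 call of DTX2 was lost without opposite artery replicate 1, 2 or 4 or graft replicate 3 or 4 (adjusted p up to 0.0828), with median-of-ratios (adjusted p = 0.0597) and TPM scaling (adjusted p = 0.220), and without the mixture-like libraries (adjusted p = 0.105). APH1B, FURIN, MIB1, KAT2B, TLE4, NCOR1, DTX2 and SNW1 were named after their values were seen.

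**Figure D4:**
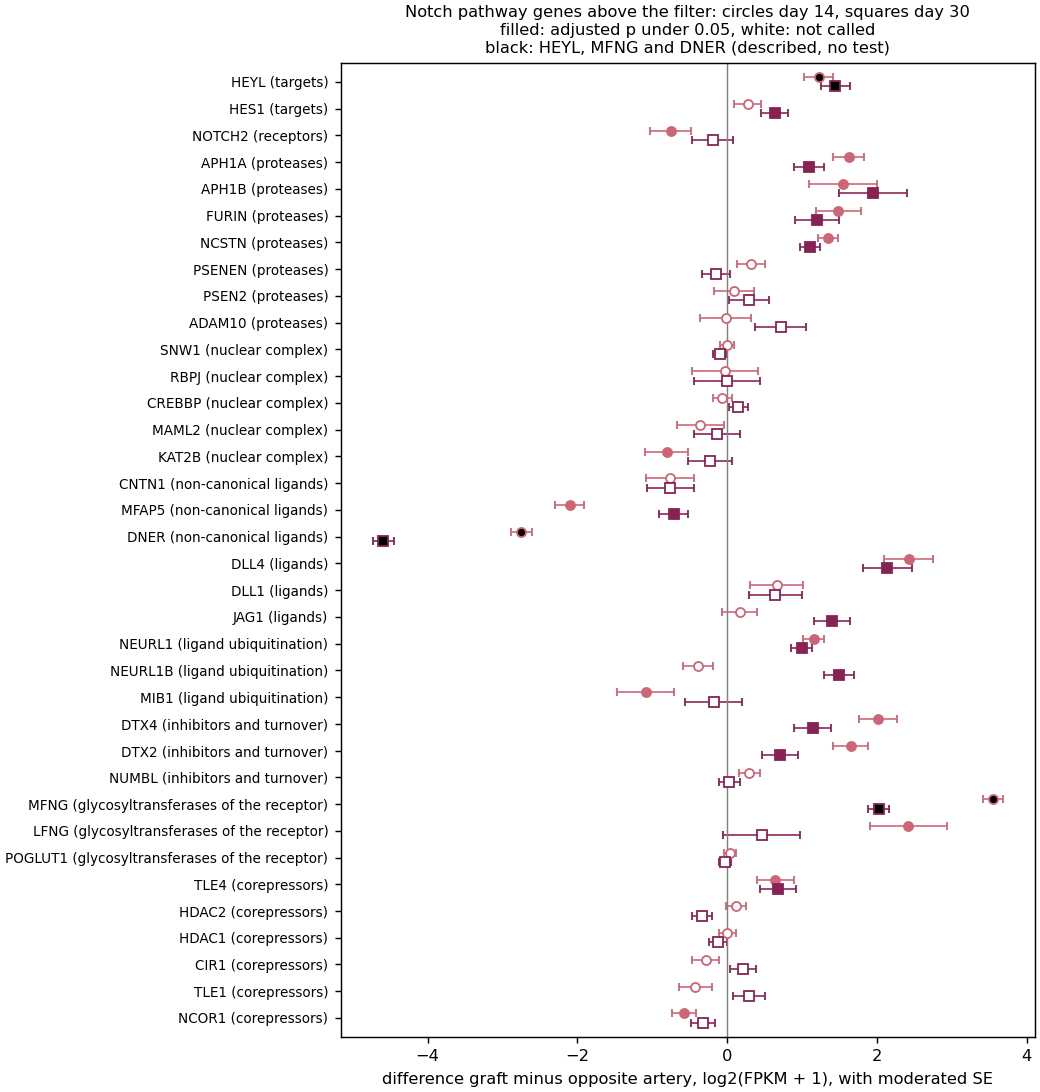
Difference of graft minus opposite artery on the log2(FPKM + 1) scale with its moderated SE for 36 Notch pathway genes that passed the filter, at day 14 (circles) and day 30 (squares), grouped by role. MFNG has the highest value at day 14 (3.55) and DNER the lowest on both days (-2.75 and -4.59), HEYL lies at 1.22 and 1.44, and filled symbols mark an adjusted p under 0.05.

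The graft effect itself changed between days in 3 of the 33 genes (9.09%, against 12.9% of all genes), all toward higher values at day 30: NEURL1B by 1.88 (adjusted p = 0.000475), MFAP5 by 1.39 (adjusted p = 0.00291) and JAG1 by 1.23 (adjusted p = 0.0216). MFNG and DNER moved the other way, to lower values. Such a change can lie in the grafts or in the opposite arteries. From day 14 to day 30 NEURL1B differed by -1.17 in opposite arteries and 0.70 in grafts, and MFAP5 by 0.17 and 1.56. JAG1 differed by -0.59 and 0.65, and neither passed (adjusted p = 0.129 and adjusted p = 0.0710, limma). JAG1 and MFAP5 did not pass with the day 14 opposite arteries as 1 sample (adjusted p = 0.262 and adjusted p = 0.109), and JAG1 not without the mixture-like libraries (adjusted p = 0.15). Without day 14 graft replicate 1 or 2 or day 30 graft replicate 2, 3 genes passed upward and 2 downward, and without day 30 opposite artery replicate 4, 3 and 1. Over all genes 466 passed upward and 655 downward as reported. Without these grafts it was 468 to 533 and 694 to 872, and without that artery 442 and 639.

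Between the grafts of the 2 days 6 of 33 genes passed (18.2%, against 16.3% of all genes). MFAP5 (1.56), HES1 (0.85), TLE1 (0.72) and NEURL1B (0.70) rose and DTX4 (-1.01) and HDAC2 (-0.43) fell, while HEYL, MFNG and DNER overlapped between the days. Of these 6 calls only 1, MFAP5, held when only the graft libraries were fitted, and the same 1 held without the mixture-like libraries. Over all genes the calls fell from 1412 to 321 and to 424 in these settings. Single libraries ended the calls of NEURL1B (graft replicate 4 of day 14, and 1 and 2 of day 30), TLE1 (3 and 4 of day 14, and 2, 3 and 4 of day 30) and HDAC2 (2 and 4 of day 14, and 3 and 4 of day 30), with adjusted p from 0.0547 to 0.104.

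Between the opposite arteries of the 2 days, where MFNG and DNER were higher on day 30, 1 of 33 genes passed (3.03%, against 10.7% of all genes). This was NEURL1B, which fell by 1.17 (adjusted p = 0.00115), from 3.23 ± 0.285 to 0.905 ± 0.393 FPKM. It did not pass with the day 14 opposite arteries as 1 sample (adjusted p = 0.251). Day of collection and any difference in when or how the samples were handled cannot be told apart.

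In vein against the mean of the opposite arteries 9 of 33 genes passed (27.3%, against 37.1% of all genes), 8 higher and 1 lower. With median-of-ratios factors it was 6 and 4, and with TPM scaling 4 and 0. Over all genes 2178 were higher and 1036 lower, with 1582 and 1544, and 1635 and 869, under these scalings. APH1A (0.83), NEURL1B (0.80), NCSTN (0.48) and POGLUT1 (0.31), a glycosyltransferase of the receptor, were higher, as were CNTN1 (1.03), CIR1 (0.58), SNW1 (0.23) and LFNG (1.28, adjusted p = 0.0305), the relative of MFNG. NOTCH2 was lower (-0.80, adjusted p = 0.0124). Leaving out vein replicate 2 ended the calls of NOTCH2 (adjusted p = 0.0534), LFNG (adjusted p = 0.155) and SNW1 (adjusted p = 0.130). The call of LFNG also ended without vein replicate 3 or 4 or the day 30 opposite artery replicate 3, and that of SNW1 without vein replicate 1 or 4, the day 14 opposite artery replicate 1 or the day 30 opposite artery replicate 4. With TPM scaling the calls of POGLUT1 (adjusted p = 0.147), NCSTN (adjusted p = 0.109), CIR1 (adjusted p = 0.0508), NOTCH2 (adjusted p = 0.0588) and SNW1 (adjusted p = 0.403) were lost. Median-of-ratios scaling ended the calls of POGLUT1 (adjusted p = 0.0914, limma) and SNW1 (adjusted p = 0.554). Without the mixture-like libraries those of LFNG (adjusted p = 0.0887) and SNW1 (adjusted p = 0.121) ended, and with no filter that of LFNG (adjusted p = 0.0516). DNER and CNTN1, both listed as non-canonical ligands, differed in opposite directions. The CNTN1 call was lost with a pseudocount of 0.1 (adjusted p = 0.0535), and CNTN1 was listed at 0 in 3 of 20 libraries.

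Cell type markers moved with the 3 genes, and in whole-tissue RNA fewer cells of a type and less RNA per cell cannot be told apart. The arteries held the summed smooth muscle markers that their label implies, from 8323 to 8847 FPKM on day 14 and from 6093 to 8747 on day 30, with 614 to 930 and 1355 to 1785 in grafts and 3620 to 3917 in vein. Of 6 smooth muscle markers tested, 5 were lower in grafts at day 14 and 6 at day 30. For this and the marker counts below, all 8657 genes gave 3161 higher and 1473 lower at day 14. At day 30 they gave 2253 and 1000, and in vein 2178 and 1036. HEYL, a gene of smooth muscle among other cells, was higher in grafts where the smooth muscle markers were lower.

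The sums of endothelial, macrophage, T and natural killer cell and fibroblast markers followed the order of MFNG in unoperated vessels. They averaged lowest in the day 14 arteries, higher in the day 30 arteries and highest in vein. Like MFNG, the macrophage and T and natural killer cell sums averaged higher in grafts than in vein. The endothelial and fibroblast sums did not. The endothelial sum over 11 genes ran from 46.8 to 53.3 FPKM in the day 14 arteries, 55.0 to 162 in the day 30 arteries and 609 to 762 in vein, with 170 to 449 in the day 14 grafts and 428 to 511 in the day 30 grafts. Of 9 tested, 7 rose at day 14 and 8 at day 30, and 8 were higher in vein. Of the defining markers PECAM1 was listed at 0 in both groups of opposite arteries, whereas CDH5 averaged 9.74 and 18.4 FPKM there. VWF made up 441 of the 659 FPKM that the list averaged in vein. CDH5 (58.9 and 78.9 FPKM in grafts, 33.6 in vein), CLDN5 (98.2 and 140 against 33.2) and KDR (14.9 and 14.9 against 3.52) averaged higher in grafts than in vein. They are only some of the 11 genes and do not stand for the list. Its sum, VWF included, averaged 307 and 466 FPKM in grafts against 659 in vein.

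Macrophage markers ran from 14.6 to 16.6 and 18.8 to 39.1 FPKM in the opposite arteries of the 2 days, from 263 to 568 and 198 to 392 in grafts, and from 51.1 to 117 in vein. Of 6 tested, 5 rose on both days and 3 were higher in vein than in opposite arteries. CD68 was listed at 0 in all unoperated groups. T and natural killer cell markers (4 of 4 tested) rose on both days, and B and plasma cell markers in 3 of 3 at day 14 and 2 of 3 at day 30. T cell sums reached at most 3.82 FPKM in opposite arteries and 26.1 in grafts, and B cell sums at most 14.6 and 438. In the day 14 opposite arteries they reached at most 0.69 and 2.22. Markers this low, or listed at 0 as CD68 was, can pass the filter through the grafts alone. Their counts therefore give no independent support.

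The sums of smooth muscle, mural, nerve and skeletal muscle markers, like DNER, were higher in opposite arteries than in grafts. Not all their members followed, and nerve markers were high in vein too. Like DNER, the smooth muscle sum in vein lay between arteries and grafts without overlap. Its means were 8587 and 7294 FPKM in opposite arteries, 3731 in vein, and 738 and 1577 in grafts. Mural markers, whose sum is nearly all RGS5 in opposite arteries, summed to 3318 to 3385 and 2005 to 3014 FPKM in opposite arteries, 211 to 349 and 176 to 280 in grafts and 100.2 to 135 in vein; of 5 tested, 3 fell and 1 rose at day 14, 1 fell and 1 rose at day 30, and 1 was higher and 1 lower in vein. PDGFRB averaged 21.4 and 24.6 FPKM in opposite arteries against 61.6 and 50.3 in grafts, and KCNJ8 was highest in vein (69.1 FPKM). Nerve and Schwann cell markers summed to 66.8 to 79.2 and 25.1 to 81.4 FPKM in opposite arteries, 2.87 to 5.38 and 4.80 to 15.5 in grafts and 38.9 to 51.5 in vein, and of 7 tested 6 fell and 1 rose at day 14 and 4 fell at day 30. The mean nerve sum was 46.1 FPKM in vein and 52.6 in the day 30 arteries, where DNER was 20.1 times higher than in vein. Skeletal muscle markers fell in 3 of 3 on both days, with means of 591 and 518 FPKM in opposite arteries, 35.5 and 37.7 in grafts and 32.7 in vein. None of these sums was higher on average in the day 30 than in the day 14 opposite arteries, where DNER was 3.63 times higher. Fibroblast markers averaged 1500 and 1625 FPKM in opposite arteries, 587 and 1368 in grafts and 2304 in vein. The part of any of these cell types in the levels of HEYL, MFNG and DNER was not tested.

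**Figure D5:**
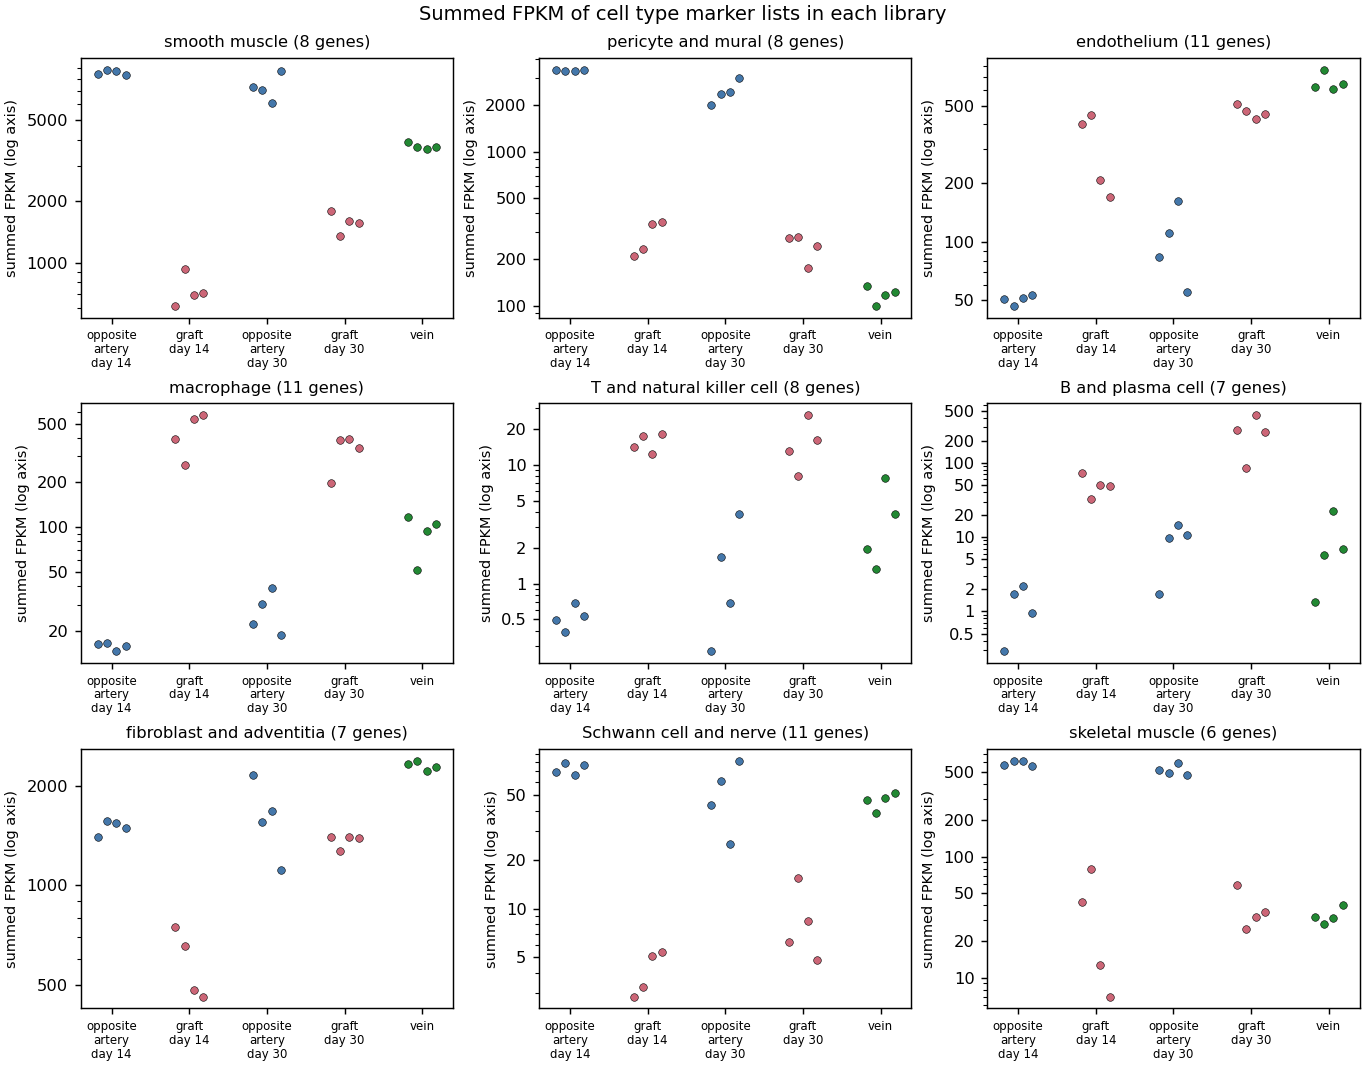
Summed FPKM (log axis) of 9 lists of cell type markers in each library of the 5 groups, with the number of genes found in each title. Smooth muscle markers average 8587 FPKM in the day 14 opposite arteries and 738 in the day 14 grafts, and the endothelial sum is highest in vein (609 to 762), where VWF makes up 441 of 659 FPKM on average.

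Genes whose log2 levels followed each of the 3 most closely were named by Pearson's r over the 20 libraries, among 4670 genes averaging at least 5 FPKM in a group. Since the libraries fall into 5 groups, r mostly follows the group means, and it is a description. Closest to HEYL were FBLN7 (r = 0.947), PCDH1 (0.944), ANGPT2 (0.936), RNF144A (0.932) and ST8SIA4 (0.931). ANGPT2, an angiopoietin of endothelial cells, averaged 2.12 and 2.09 FPKM in opposite arteries, 8.25 and 10.8 in grafts and 3.48 in vein.

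Closest to MFNG were WLS (r = 0.969), CCL14 (0.966), CLIC1 (0.964), S100A10 (0.962) and DHRS4 (0.962). WLS, a carrier needed to secrete Wnt proteins, averaged 13.2 and 26.1 FPKM in opposite arteries, 53.4 and 52.6 in grafts and 44.9 in vein, in the same order of unoperated vessels as MFNG. CCL14, a chemokine, averaged 3.21 and 8.12 FPKM in opposite arteries, 29.3 and 33.5 in grafts and 24.01 in vein.

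Closest to DNER were PHTF2 (r = 0.977), ARHGEF26 (0.961), CREB3 (0.952), UST (0.951) and SOST (0.944). PHTF2 averaged 29.9 and 57.0 FPKM in opposite arteries, 5.94 and 5.52 in grafts and 9.04 in vein, so it too was higher on day 30 than on day 14 in opposite arteries. SOST, which encodes the Wnt inhibitor sclerostin, averaged 18.1 and 22.4 FPKM in opposite arteries, 0.0750 and 0.473 in grafts and 0.840 in vein.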

How the data were processed

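TRIzol extracts of total RNA from 20 vessel samples gave paired-end libraries for the NovaSeq X Plus, per the labels' protocols. The tools named, per the submitters' processing notes, are DESeq2, fastp, HISAT2, RSEM and StringTie; versions and genome build are not given in the sources used here. FPKM values were deposited by the authors, with no read counts, so depth and counting errors are unknown, and their transcript rows (24964) were summed here to 23669 genes. Library names matched vein columns to samples.

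limma 3.58.1 (R 4.3.3) fitted log2(FPKM + 1), with 1 mean per group over 20 libraries, moderated variances that follow the mean level and two-sided tests, to the 8657 genes that reached 1 FPKM in 4 or more libraries. Benjamini-Hochberg adjustment of p-values ran over these genes, with a threshold of 0.05. Errors of FPKM are SD, those of differences moderated SE. Tables were handled in Python 3.11.15 with pandas 2.3.3, numpy 2.4.6 and scipy 1.17.1, and figures drawn with matplotlib 3.10.9. The procedure was tested on simulated data.

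Of the genes tested, 6907 had a symbol in the table, 613 were named through their NCBI gene number with a RefSeq table of symbols, and 1137 had none. Named were the 6 list genes with the smallest adjusted p per comparison, the relatives of the 3 genes, the receptors, and the 5 genes most like each of the 3 in log2 level. The 3 genes, the lists, the tests and the alternatives were chosen with earlier results of these data known.

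Alternatives were another pseudocount (0.1), another filter on low values (5 FPKM, or none), scaling by median-of-ratios or to TPM, only the groups compared, the replicate number as a block, each library left out, the mixture-like libraries left out (in each group but 1, the library with the smallest distance to a weighted mean of its 3 partners, over genes with a mean of at least 10 FPKM), and the day 14 opposite arteries counted as 1 sample.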

Additional observations from a re-analysis of the deposited data

Results flagged for a closer look

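In 135 sets of 4 libraries (27 genes in 5 groups), 15 held 1 library far from the other 3, where chance flags about 1 in 20 sets. Among HEYL, MFNG and DNER this was the case once, for DNER in vein replicate 2, at 2.28 FPKM against 1.35 to 1.5 FPKM in the others; this library was still below every opposite artery and above every graft.

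In the day 14 grafts, replicate 2 stood apart for MFAP5 (45.12 FPKM, the others up to 27.35), NEURL1 (0.84, the others from 1.72) and CIR1 (3.46, the others from 5.46), and replicate 4 for NEURL1B (1.60, the others from 2.44). In the day 30 grafts, replicate 2 stood apart for MFAP5 (79.8 FPKM, the others from 93.7) and CNTN1 (1.31, the others up to 0.70), replicate 1 for APH1A (12.78, the others from 21.25) and NOTCH2 (10.47, the others up to 10.12), and replicate 3 for FURIN (29.89, the others from 39.83).

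In the day 14 opposite arteries, replicate 1 stood apart for NCOR1 (2.73 FPKM, the others from 3.67), SNW1 (9.18, the others from 9.77) and LFNG (0.11, the others listed at 0). In the day 30 opposite arteries, replicate 4 stood apart for NEURL1 (0.32 FPKM, the others up to 0.16) and replicate 3 for POGLUT1 (5.59, the others from 6.75).

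For JAG1, MFAP5 and NEURL1B the difference between graft and opposite artery was itself different on the 2 days (limma). It was higher on day 30 by 1.23 for JAG1 (adjusted p = 0.0216), by 1.39 for MFAP5 (adjusted p = 0.00291) and by 1.88 for NEURL1B (adjusted p = 0.000475).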

How the results depend on the processing

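The 18 differences of HEYL, MFNG and DNER took 333 values under the alternatives, of which 16 moved by more than the spread between replicates. Most of the 333 could not move by that much, so this count is no measure of stability. The filters, only the groups compared and the replicate block leave a difference of group means unchanged. Leaving out 1 of 4 libraries shifts a group mean by no more than that spread. The sign changed in 2 values near 0, MFNG between the grafts of the 2 days (0.01 with TPM scaling) and HEYL in vein (0.00), and not for any difference between graft and opposite artery. Those against the opposite artery that moved were HEYL at day 14 with median-of-ratios scaling (0.95) and MFNG at day 14 with a pseudocount of 0.1 (3.85) and median-of-ratios scaling (3.28). DNER moved with a pseudocount of 0.1 (-3.96 at day 14 and -6.12 at day 30), with TPM scaling (-3.52 and -5.61) and, at day 14, with median-of-ratios scaling (-2.92). TPM scaling enlarged all values while the pseudocount stayed at 1, so for DNER scaling and pseudocount cannot be told apart there. Median-of-ratios scaling moved the median of all genes from 0.26 to 0.04 at day 14 and from 0.18 to 0.03 at day 30, and TPM scaling to 0.09 and -0.02; calls over all genes at day 14 went from 3161 higher and 1473 lower to 2367 and 2137 with median-of-ratios scaling.

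With the day 14 opposite arteries as 1 sample, fewer of the 33 other Notch genes passed at day 14, for the change between days and between the opposite arteries. So did fewer of all genes. The list count between opposite arteries, reported as 1, was 0 with a filter of 5 FPKM (4 of 20 genes at an unadjusted p under 0.05, limma). It was 2 with a pseudocount of 0.1, 2 with median-of-ratios scaling, 3 with TPM scaling and 2 with only the groups compared. Over all genes it was 929 as reported and 819 (of 5264 genes), 1037, 1062, 983 and 1200 in these settings. Between grafts of the 2 days the list count was 1 in place of 6 with only the groups compared, and 1 without the mixture-like libraries. All genes gave 321 and 424 there in place of 1412. In vein with TPM scaling it was 4 in place of 9 in the list, and 2504 in place of 3214 over all genes. Leaving out single libraries gave 3 to 5 genes for the change between days (5, of which 2 downward, without day 14 graft replicate 1 or 2 or day 30 graft replicate 2) and 1 to 2 between opposite arteries (2 without day 30 replicate 3). Of 47 calls of single genes, 21 held under every alternative run for them; the other 26 lost 108 of 818 values in all and 0 reversed.

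Same-numbered grafts and opposite arteries deviated together in 1 of 8 pairs (r over 0.1), and 2 of 8 samples were best matched by their own number, so the numbers are not taken to pair the samples. With the replicate number as a block, 16 of the 33 genes passed at day 14, 13 at day 30, 4 for the change (3 upward and 1 downward), 6 between grafts and 1 between opposite arteries; the call of TLE4 at day 30 was lost (adjusted p = 0.0535), and the vein contrast was not fitted with a block. Over all 8657 genes the block gave 4581, 3184, 1049, 1288 and 860 calls, in the same order of comparisons. Read depth is unknown, which limits the levels of DNER in grafts most.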

Other observations

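In the day 14 grafts several Notch genes fell into pairs of libraries, a pattern seen in the values and not tested. Replicates 1 and 2 were higher than replicates 3 and 4 for DLL4 (12.13 and 13.16 against 4.24 and 2.44 FPKM) and JAG1 (35.84 and 49.32 against 23.67 and 19.70 FPKM). They were lower for NOTCH2 (5.80 and 3.65 against 12.96 and 13.76 FPKM), FURIN (34.13 and 23.65 against 74.50 and 81.02 FPKM) and DTX4 (6.63 and 6.32 against 15.29 and 17.08 FPKM). Summed endothelial markers were 401 and 449 FPKM in replicates 1 and 2 and 208 and 170 FPKM in replicates 3 and 4. Summed macrophage markers divided the other way (396 and 263 against 534 and 568 FPKM), and the sums of FPKM over all genes were 557827 and 671582 against 422889 and 371438. HEYL did not show this division (12.21 and 18.53 against 14.46 and 14.72 FPKM); MFNG held 50.97 and 62.54 against 44.95 and 49.07 FPKM, and DNER 0.56 and 0.58 against 0.41 and 0.41 FPKM.

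FBXW7, a ubiquitin ligase subunit that marks the active receptor for destruction, was below the filter and stood at 0.84, 1.11, 1.06 and 1.17 FPKM in the day 14 grafts, above its 0.46, 0.11, 0.14 and 0.16 FPKM in the opposite arteries of that day. NOTCH4, also below the filter, held 0.80, 0.60, 0.71 and 0.48 FPKM in the day 14 grafts and at most 0.15 FPKM in the opposite arteries of that day.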
